A study of Homo sapiens with 4 samples.

Results

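The 10 genes described here, LMX1A, LMX1B, LHX1, LHX2, LHX4, LHX5, LHX6, LHX9, ISL1 and ISL2, belong to the LIM-homeodomain family of transcription factors and were found by gene symbol among the 25690 gene rows of a count table. They are 10 of the 12 family genes in that table, the other 2 being LHX3 and LHX8. The genes were chosen from the same measured difference between genotypes that is given below, so their values are a description and carry no test. The series is polyA-enriched RNA-seq of H9 cells, an established human embryonic stem cell line, taken at day 7 of a culture that the series calls non-neural ectoderm. One group is wild type (WT, 2 libraries) and the other has the genotype label TFAP2A knockout (2 libraries), with no treatment named for either group. The titles of the libraries in the second group name TFAP2C in place of TFAP2A, so they are called the libraries labelled knockout. The labels do not say whether the 2 libraries of a group came from separate cultures, or the knockout from 1 clone or several, and p-values then measure a spread that may be only technical.

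LIM-homeodomain factors carry a DNA-binding homeodomain and a pair of zinc-finger LIM domains that bind other proteins. The LIM domains are held together by LDB cofactors, which dimerise and so bring family members into complexes, with SSBP proteins stabilising LDB and LIM-only (LMO) proteins competing for it. Combinations of family members set cell fates in the neural tube, limb, heart, kidney, eye and pituitary. TFAP2A and its paralogues encode AP-2 factors, which regulate surface ectoderm, amnion and neural crest genes.

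The libraries held 17838204 to 21797850 counts, so that a limit of 3 counts lay at 0.138 to 0.168 CPM, the counts scaled to a common library size. TFAP2A mRNA was read at 171 and 198 CPM in WT and at 133 and 121 CPM in the libraries labelled knockout, and TFAP2C mRNA at 27.5 and 30.6 against 8.89 and 5.77 CPM. TFAP2B, a paralogue that neither the genotype label nor the titles name, was at 261 and 287 against 45.7 and 40.5 CPM. The fitted log2 fold changes were -0.54 for TFAP2A, -1.99 for TFAP2C and -2.67 for TFAP2B. Which gene was edited was not tested with these levels. All 10 markers of surface ectoderm were detected, with summed levels of 3203 and 3477 CPM in WT and 2455 and 2371 CPM in the libraries labelled knockout. KRT8 was the largest part of these sums, at 1293 and 1335 CPM in WT against 1049 and 1061 CPM. Of 15643 genes tested with edgeR's quasi-likelihood test, 6919, or 44.2%, passed a Benjamini-Hochberg adjusted p of 0.05 (21.9% higher and 22.3% lower in the libraries labelled knockout). Of the 10 surface ectoderm markers, 7 were lower, 0 were higher and 3 did not pass in that test. A change at 1 gene is to be read against the shares over all genes tested.

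Promoter windows of the family are shown first, because AP-2 factors bind the palindrome GCCNNNGGC and the study removes an AP-2 gene. The windows run from 250 bases before to 50 bases after the annotated start in RefSeq (GRCh38.p14), and 8 of the 10 members matched a window by symbol. Below are the 4 members that were expressed in both groups, each 5′ to 3′, with every match to the palindrome in capitals. The palindrome is its own reverse complement, so 1 search covers both strands.

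LMX1B (GRCh38.p14, chr9:126613678-126613977, + strand): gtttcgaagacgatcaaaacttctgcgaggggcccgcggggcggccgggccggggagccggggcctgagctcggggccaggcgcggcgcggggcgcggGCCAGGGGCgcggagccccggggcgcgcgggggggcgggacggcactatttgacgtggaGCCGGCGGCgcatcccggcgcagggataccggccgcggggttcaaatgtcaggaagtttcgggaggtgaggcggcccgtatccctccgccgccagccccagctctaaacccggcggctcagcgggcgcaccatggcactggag

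LHX2 (GRCh38.p14, chr9:124011518-124011817, + strand): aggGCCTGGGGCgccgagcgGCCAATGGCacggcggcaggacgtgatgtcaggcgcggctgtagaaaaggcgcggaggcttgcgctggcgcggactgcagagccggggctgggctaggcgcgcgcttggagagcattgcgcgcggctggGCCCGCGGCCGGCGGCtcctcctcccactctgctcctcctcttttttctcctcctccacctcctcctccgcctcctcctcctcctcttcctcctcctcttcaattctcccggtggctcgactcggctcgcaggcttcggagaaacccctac

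ISL1 (GRCh38.p14, chr5:51383198-51383497, + strand): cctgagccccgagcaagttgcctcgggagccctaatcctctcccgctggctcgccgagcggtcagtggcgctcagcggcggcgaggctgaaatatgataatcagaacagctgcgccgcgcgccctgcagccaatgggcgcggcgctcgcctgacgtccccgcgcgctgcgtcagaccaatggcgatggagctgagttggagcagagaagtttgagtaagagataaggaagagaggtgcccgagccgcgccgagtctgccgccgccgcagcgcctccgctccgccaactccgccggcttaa

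LHX4 (GRCh38.p14, chr1:180230014-180230313, + strand): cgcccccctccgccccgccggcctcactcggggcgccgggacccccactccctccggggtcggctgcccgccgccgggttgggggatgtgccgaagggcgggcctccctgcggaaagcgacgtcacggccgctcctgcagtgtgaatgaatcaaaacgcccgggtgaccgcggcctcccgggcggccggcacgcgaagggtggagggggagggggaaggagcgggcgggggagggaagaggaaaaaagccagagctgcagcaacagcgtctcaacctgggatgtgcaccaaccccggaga

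The LMX1B window held 2 matches, at bases 99 to 107 and 158 to 166 counted from its 5′ end. The LHX2 window held 4 matches, at bases 4 to 12, 21 to 29, 150 to 158 and 157 to 165, the last pair overlapping. The ISL1 and LHX4 windows held 0 matches. ISL2 had 1 match at bases 195 to 203, LMX1A and LHX6 had 1 match each in a single window, and LHX9 had 0. Over all 35116 windows of this length, 23.2% held at least 1 match, 5.24% at least 2 and 0.214% at least 4. GC content of the windows shown was 75.3% for LMX1B, 72.7% for LHX4, 69% for LHX2 and 66.7% for ISL1, all above the median window at 58.7%. LMX1B and LHX2, the pair with 2 or more matches, moved in opposite directions between the groups, as the values below show. A match is a run of letters and not a measured binding site.

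LMX1B was the main LIM-homeodomain mRNA of the WT libraries and was nearly lost from the libraries labelled knockout, where LHX1 was detected and ISL1 was higher. Of the 10 members, 5 had enough counts to be tested, and LHX1 passed that filter only through the libraries labelled knockout. Among the 5, LHX1, ISL1 and LHX2 lay past the threshold on the higher side, LMX1B on the lower side, and LHX4 did not pass. That is 4 of 5 tested beside 44.2% of all genes tested, and nothing is read from it because the members were chosen from this contrast. LHX2 did not stay past the threshold with DESeq2, without WT replicate 2 or without replicate 1 of the libraries labelled knockout.

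**Figure D1:**
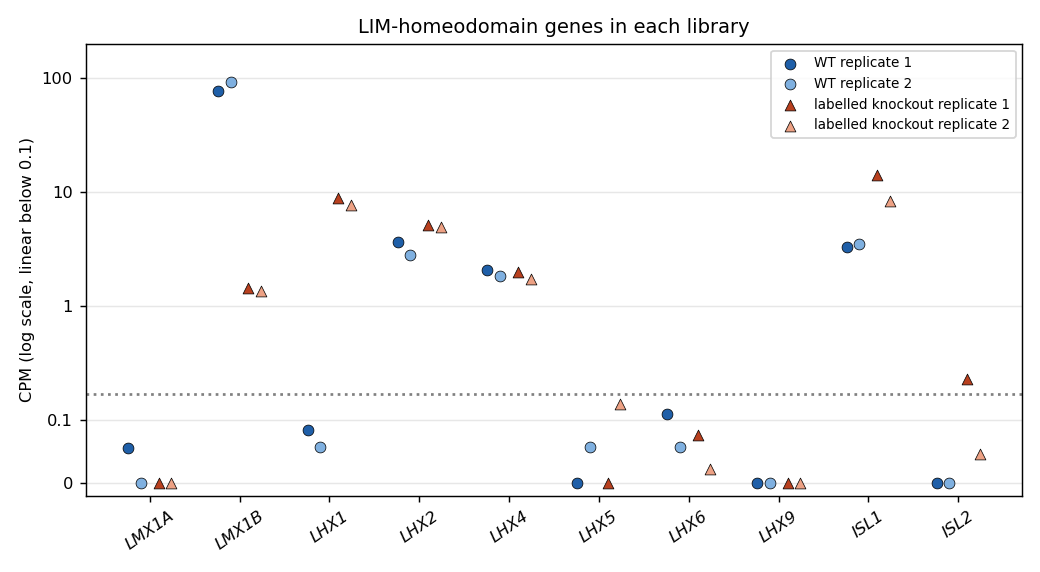
CPM of each of the 10 genes in each library, on a log axis that is linear below 0.1 CPM; circles are WT and triangles the libraries labelled knockout, and the dotted line is the highest 3-count limit of the libraries, 0.168 CPM. LMX1B sits at 77.0 and 93.0 CPM in WT against 1.43 and 1.35 CPM, LHX1 at or above 7.79 CPM only in the libraries labelled knockout, and LMX1A, LHX5, LHX6 and LHX9 below the line in every library.

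LMX1B, which in mice and humans specifies dorsal limb, podocytes, anterior eye and several groups of brain neurons, was covered by 1377.5 and 1640.5 counts in WT and by 28 and 29.5 counts in the libraries labelled knockout. On the CPM scale these are 77.0 and 93.0 in WT, a mean of 85.0 ± 11.3 (SD, n = 2), against 1.43 and 1.35, a mean of 1.39 ± 0.058 (SD, n = 2). Both WT libraries were high and both libraries labelled knockout were low, with no overlap, yet the low values stood above the 3-count limit. The fitted log2 fold change was -5.91 (SE 0.14), a level 60.3-fold lower. The ratio of depth-scaled counts was 61.1, with an exact 95% interval of 47.1 to 80.8 that covers counting error only. Only 20 of the 15643 tested genes, LMX1B included, had a fold change as low or lower. LMX1B lies at chr9:129376722-129463311 on the + strand in the deposited coordinates, which differ from those of GRCh38. Its paralogue LMX1A, a regulator of roof plate and of midbrain dopaminergic neurons, was read at 1 count in WT replicate 1 and at 0 counts in the other 3 libraries. Expression of LMX1A was therefore not detectable at this depth in either group.

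LHX1, required for the head organiser and for the forming kidney, was read at 1.5 and 1 counts in WT and at 174 and 170 counts in the libraries labelled knockout. Its CPM values were 0.0839 and 0.0567 in WT, both under the 3-count limit, and 8.91 and 7.79 in the libraries labelled knockout. The 2 groups were far apart, and the libraries within each lay close together. The ratio of depth-scaled counts was 118, and since WT gave only 2.5 counts in all, its exact 95% interval ran from 36.6 to 714. The fitted log2 fold change was 6.52 (SE 0.35), and 13 of the 15643 tested genes, LHX1 included, had one as high or higher. LHX1 lies at chr17:35294772-35301915 (+) in the deposited coordinates. Its close relative LHX5, a forebrain and hindbrain regulator, was read at 0 and 1 counts in WT and at 0 and 3 counts in the libraries labelled knockout. No difference in LHX5 could be seen at this depth.

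ISL1, which marks cardiac progenitors, motor and sensory neurons and also amnion, was read at 59.5 and 61.5 counts in WT and at 278.5 and 182.5 counts in the libraries labelled knockout. In CPM it stood at 3.33 and 3.49 in WT, and at 14.3 and 8.36 in the libraries labelled knockout. Both of the latter were above both WT values, but they differed from each other more than the WT pair did, with replicate 1 the higher (11.3 ± 4.17, SD, n = 2, against 3.41 ± 0.11). The fitted log2 fold change was 1.71 (SE 0.26), a level 3.27-fold higher, and 289 of the 15643 tested genes, ISL1 included, had one as high or higher. ISL1 lies at chr5:50678958-50690563 (+) in the deposited coordinates. ISL2, which acts with ISL1 in motor neurons, was read at 0 counts in both WT libraries and at 4.5 and 1 counts in the libraries labelled knockout. One ISL2 library thus stood above the 3-count limit and the other 3 stood below it.

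LHX2, a forebrain, eye and limb selector gene, was read at 65.5 and 49.5 counts in WT and at 101 and 108 counts in the libraries labelled knockout. In CPM these are 3.66 and 2.81 against 5.17 and 4.95. The groups did not overlap, and the WT pair was the more spread (3.23 ± 0.61 against 5.06 ± 0.16, SD, n = 2). The fitted log2 fold change was 0.63 (SE 0.20), or 1.55-fold, and 1431 of 15643 tested genes had one as high or higher. LHX2 lies at chr9:126773889-126795442 (+) in the deposited coordinates. LHX9, its paralogue in gonad and limb bud, had 0 counts throughout, so its level could lie anywhere up to 0.138 to 0.168 CPM depending on the library.

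LHX4, which acts in pituitary and motor neuron development, was read at 37 and 32.5 counts in WT and at 38.5 and 38 counts in the libraries labelled knockout. Its CPM values of 2.07 and 1.84 overlapped those of 1.97 and 1.74. The fitted log2 fold change was -0.08 (SE 0.26), and its sign turned under some alternative settings. The ratio of WT to labelled-knockout depth-scaled counts was 1.06, with an exact 95% interval of 0.753 to 1.48, so a change inside those bounds was not detectable. LHX4 lies at chr1:180199433-180244188 (+) in the deposited coordinates. Its paralogue LHX3, also a pituitary and motor neuron gene, had 0 counts in all libraries. LHX6, which marks first-arch mesenchyme and forebrain interneurons, was read at 2 and 1 counts in WT against 1.5 and 0.5 in the libraries labelled knockout, below the limit in each. LHX8, which is expressed with LHX6 in the first arch, was read at 1.5 counts in each WT library and 0 in the others, again below the limit.

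Levels of different members were compared per kilobase of the longest annotated protein-coding transcript. In WT, LMX1B stood at a mean of 14.6 CPM per kb, followed by ISL1 at 1.39, LHX2 at 1.27 and LHX4 at 0.336. The ISL1 values of 1.35 and 1.42 overlapped the LHX2 values of 1.43 and 1.10, so those neighbours in the order could not be separated. In the libraries labelled knockout the order was ISL1 at 4.60, LHX1 at 2.44, LHX2 at 1.98, LHX4 at 0.319 and LMX1B at 0.240 CPM per kb, with no overlap between neighbours. LMX1B thus went from the first to the fifth place among these genes.

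LMX1B made up 80.3% and 84.6% of the family's summed level per kb in WT against 2.21% and 2.83% in the libraries labelled knockout. ISL1 accounted for 8.20% and 7.49% in WT and for 52.0% and 41.4% in the libraries labelled knockout, where LHX1 added 23.3% and 27.7%. LHX2 went from 8.69% and 5.80% to 18.2% and 23.6% of the sum. LHX4, whose level differed little, went from 2.15% and 1.67% to 3.04% and 3.64%. The summed level itself was 16.5 and 18.9 CPM per kb in WT and 11.2 and 8.22 CPM per kb in the libraries labelled knockout. The higher ISL1, LHX1 and LHX2 levels thus did not make up, in summed mRNA, for the lower LMX1B. In bulk RNA, fewer cells expressing a gene and less RNA per cell cannot be told apart, and this holds for each value above and below.

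**Figure D2:**
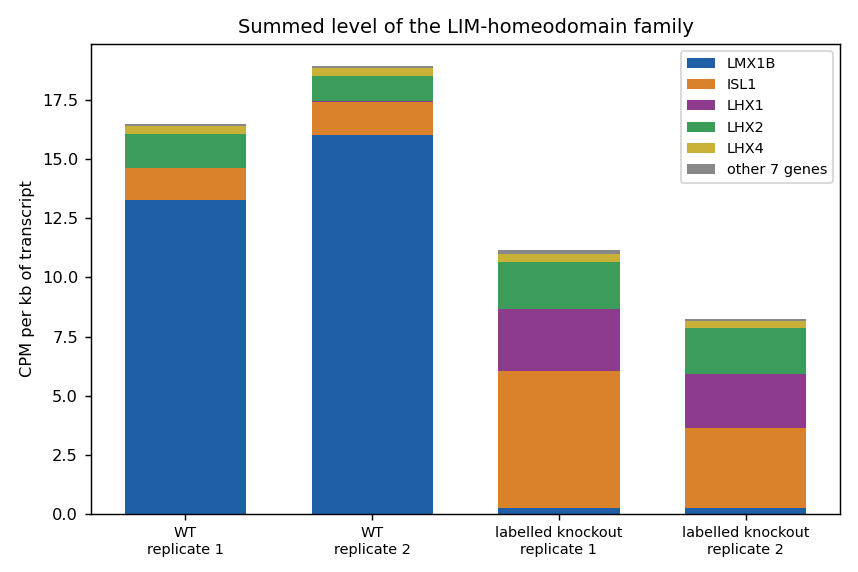
Summed CPM per kb of transcript of the 12 LIM-homeodomain genes in each library, stacked by gene; bars start at 0. LMX1B fills 80.3% and 84.6% of the WT bars, and ISL1, LHX1 and LHX2 fill most of the bars of the libraries labelled knockout.

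Markers of some other cell types also differed between the groups, and their counts are to be read beside the 21.9% higher and 22.3% lower over all genes tested. All 5 tested of 6 amnion markers (GABRP, VTCN1, HAND1, WNT6 and IGFBP3) were lower by the edgeR test, and the summed level of the list was 2106 and 2274 CPM in WT against 250 and 187 CPM. The GABRP call ended without either WT library (adjusted p = 0.0879 and 0.124) and the IGFBP3 call without WT replicate 2 (adjusted p = 0.0767). ISL1, itself known from amnion, was higher in the libraries in which those markers were lower. All 5 tested of 6 neural progenitor markers (SOX1, PAX6, SOX3, SOX2 and FABP7) were higher, with a summed level of 16.3 and 16.4 CPM in WT against 69.6 and 46.3 CPM. SOX1 was under the 3-count limit in WT, at 1 count in each library, against 25 and 15 counts. It passed the count filter only through the libraries labelled knockout, the group in which it was higher. The SOX2 call ended without WT replicate 1 (adjusted p = 0.114) or WT replicate 2 (adjusted p = 0.248), and the FABP7 call with DESeq2 (adjusted p = 0.0568). Of the 2 libraries labelled knockout, replicate 1 had the higher ISL1. It also had the higher sums of neural progenitor, amnion, surface ectoderm, endothelial, endoderm and pluripotency markers. Replicate 2 had the higher neuron and mesenchyme sums. Within the neural progenitor list, SOX2 stood at 51.8 CPM in replicate 1 and 31.4 CPM in replicate 2, but FABP7 at 1.74 and 2.18 CPM. Mesenchyme markers summed to 9965 and 10296 CPM against 7901 and 9284 CPM, with 4 of 6 tested lower. Endothelial markers, with PECAM1 at 0, summed to 43.6 and 41.1 against 17.4 and 16.6 CPM, with CDH5 and KDR lower. TEK did not pass and made up most of the lower endothelial sums, at 15.2 and 11.6 CPM in WT against 15.3 and 12.9 CPM. Of 3 tested endoderm markers 0 passed, and of 4 tested pluripotency markers only SOX2 did. Among the untested markers, BIN2 of the amnion list was under the 3-count limit in every library. Neuron markers summed to 503 and 508 CPM in WT against 521 and 561 CPM, with 2 of 5 tested higher. Nearly all of that sum was DCX, which did not pass, at 491 and 499 CPM in WT against 510 and 546 CPM. The part of these markers in the values of LMX1B, LHX1, ISL1 and LHX2 was not tested.

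Genes that overlap ISL1 and LHX4 on the opposite strand were also counted, and no source used here says if reads were assigned by strand. LOC642366 shares 209 bases with the start of ISL1 and was read at 8.5 and 22.5 counts in WT and at 100 and 64.5 counts in the libraries labelled knockout (log2 fold change 2.23, SE 0.44, edgeR adjusted p = 0.00357). ISL1 and LOC642366 were thus both high in replicate 1 and somewhat lower in replicate 2 of that group. LHX4-AS1, whose 5019 bases lie wholly inside LHX4, was read at 109 and 115 counts in WT and at 78.5 and 80.5 counts in the libraries labelled knockout (log2 fold change -0.72, SE 0.18, edgeR adjusted p = 0.00412). That call was lost with DESeq2 (adjusted p = 0.0632). LHX4 had fewer counts than its antisense gene in all 4 libraries. Without strand, reads of LHX4 and ISL1 cannot be told apart from those of their partners inside the shared stretch.

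The nearest tested gene on each side of each member was examined to see whether the differences extended along the chromosome. Of these 20 neighbours, 7 were higher, 3 lower and 10 did not pass, with log2 fold changes from -1.16 to 2.23 and a median of 0.12. That makes 10 of 20 past the threshold beside the 44.2% of all genes tested. Neither neighbour of LMX1B came near it in size of change. MVB12B, 107 kb away, did not pass (log2 fold change 0.08, SE 0.06, edgeR adjusted p = 0.333). ZBTB43, 104 kb away on the other side of LMX1B, was at -0.21 (SE 0.08) with an edgeR adjusted p of 0.04996, a call that 10 of 11 alternative settings ended. LHX1 likewise had neighbours with small values, AATF at 4.26 kb with a log2 fold change of 0.33 (SE 0.06, edgeR adjusted p = 0.000752) and MRM1 at 329 kb with 0.09 (SE 0.19), which did not pass. Both neighbours of LHX2 were higher, as LHX2 was: DENND1A at a log2 fold change of 0.27 (SE 0.06) and NEK6 at 0.65 (SE 0.16), with edgeR adjusted p-values of 0.00185 and 0.0039. FLJ23867, beside LHX4, was at 0.72 (SE 0.25, edgeR adjusted p = 0.0322), and its call ended with DESeq2 and limma-voom and without WT replicate 1, WT replicate 2 or replicate 2 of the libraries labelled knockout (adjusted p from 0.0722 to 0.383). On the far side of ISL1, PELO lay 1393 kb away and did not pass. The largest fall among the neighbours was at RXRG, 44.7 kb from the undetected LMX1A, with a log2 fold change of -1.16 (SE 0.20, edgeR adjusted p = 0.000366). LINC01234, the neighbour of LHX5, was at 1.69 (SE 0.50, edgeR adjusted p = 0.0136), a call lost with DESeq2 (adjusted p = 0.165) and without either WT library or the first library labelled knockout (adjusted p from 0.0524 to 0.147).

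**Figure D3:**
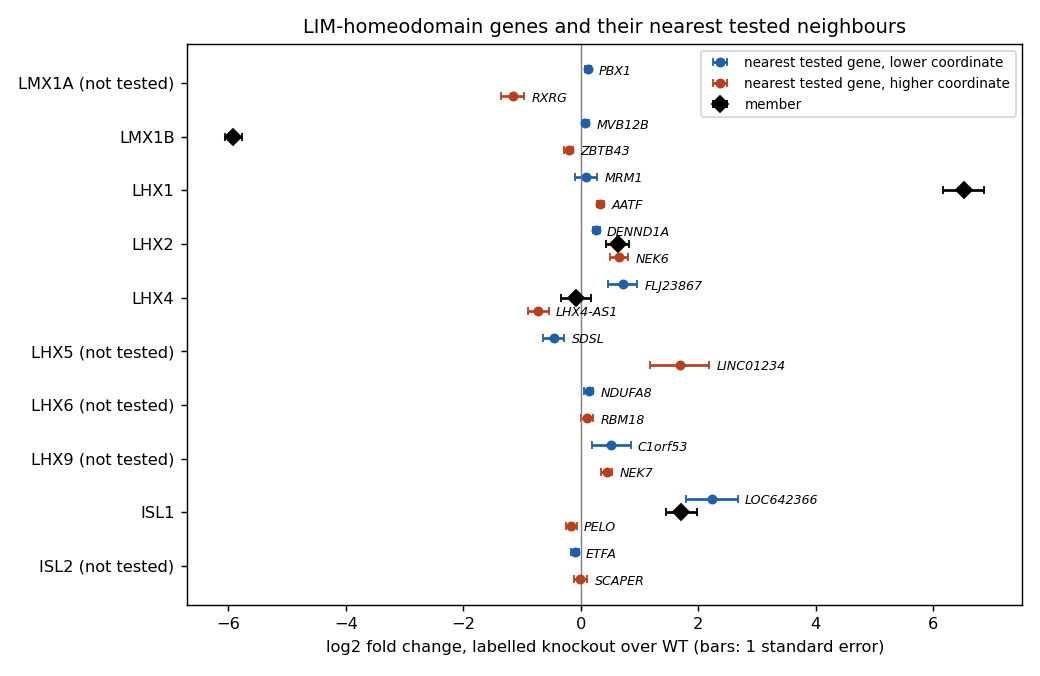
Fitted log2 fold change, libraries labelled knockout over WT, of each tested member (diamonds) and of the nearest tested gene on either side of all 10 members (circles); bars are 1 standard error. LMX1B at -5.91 and LHX1 at 6.52 lie far outside the range of the 20 neighbours, -1.16 to 2.23.

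The genes of the proteins that LIM-homeodomain factors work with were read in the same libraries. Of 10 cofactor and LIM-only genes, 8 were tested, of which 5 were higher, 1 was lower and 2 did not pass, beside 21.9% higher and 22.3% lower over all genes tested. Their median log2 fold change was 0.24, beside 0.00 over all genes tested. LDB1, the central adaptor of LIM-homeodomain complexes, stood at 186 and 184 CPM in WT and 165 and 176 CPM in the libraries labelled knockout, a difference that did not pass (log2 fold change -0.11, SE 0.05, edgeR adjusted p = 0.0909). LDB2, its paralogue, overlapped between the groups at 6.26 and 5.81 against 4.92 and 6.78 CPM.

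The mRNAs of the LDB-stabilising proteins were modestly higher. SSBP3 was at 211 and 222 CPM in WT against 284 and 315 CPM (log2 fold change 0.47, SE 0.06, edgeR adjusted p = 1.16e-05), and SSBP2 at 65.3 and 59.1 against 88.2 and 82.4 CPM (0.45, SE 0.07, adjusted p = 9.31e-05). SSBP4 was higher by 0.22 (SE 0.06, edgeR adjusted p = 0.00781), but leaving out replicate 2 of WT (adjusted p = 0.0835) or replicate 2 of the other group (adjusted p = 0.0520) ended that call. RLIM, a ubiquitin ligase that targets LDB proteins, was at 81.3 and 77.9 CPM against 98.7 and 91.6 CPM (log2 fold change 0.26, SE 0.06, edgeR adjusted p = 0.00384).

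LMO4, which competes with LIM-homeodomain factors for LDB1, was the cofactor-list gene with the largest rise, from 122 and 131 CPM in WT to 289 and 350 CPM (log2 fold change 1.34, SE 0.09, edgeR adjusted p = 9.78e-06). LMO3 went the other way, from 2.63 and 2.41 CPM to 0.896 and 0.275 CPM (log2 fold change -2.09, SE 0.40, edgeR adjusted p = 0.000868). Its fold change was -3.15 without replicate 1 of the libraries labelled knockout and -1.43 without replicate 2. LMO1 and LMO2 were read at 4 counts or fewer in every library.

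**Figure D4:**
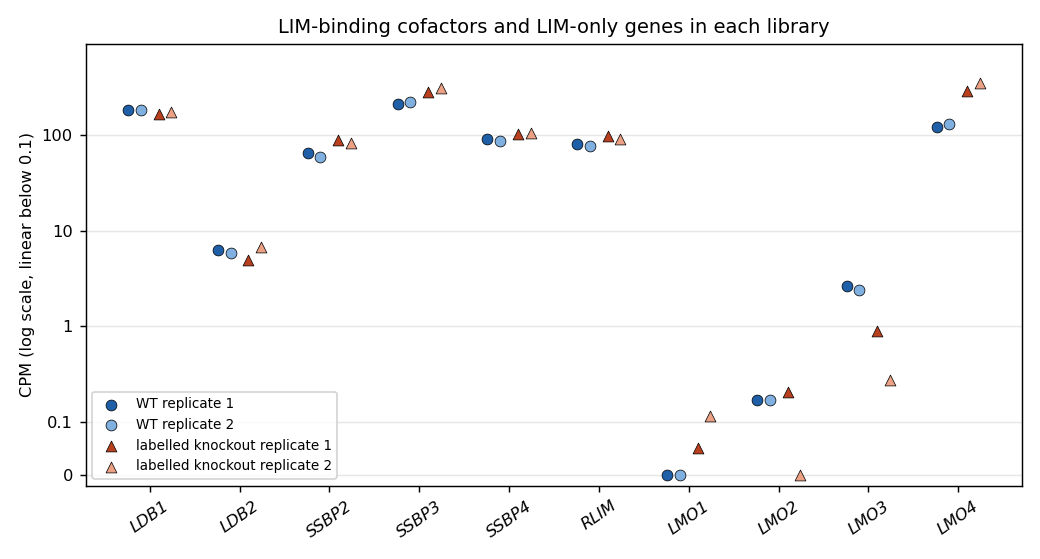
CPM of the 10 cofactor and LIM-only genes in each library, on a log axis that is linear below 0.1 CPM; circles are WT and triangles the libraries labelled knockout. LMO4 and LMO3 separate the groups most among the tested genes, and LDB1 and LDB2 least.

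Genes that accompany the members in other tissues were counted in lists. For LMX1B and LMX1A, 9 of the 15 genes of a roof plate and dorsal neural tube list could be tested. Of these 9, 1 was higher and 8 were lower, including MSX1 at 91.8 and 115 CPM in WT against 7.94 and 8.34 CPM (log2 fold change -3.66, SE 0.12, edgeR adjusted p = 3.63e-09). The 6 untested genes, WNT1, WNT3A, ZIC1, ZIC2, PAX3 and ATOH1, had 20 counts or fewer each over the 4 libraries. The median log2 fold change of that list was -1.11. Of the midbrain-hindbrain organiser list, another setting of LMX1B, 3 of 9 genes could be tested, of which GBX2 and PAX2 were higher and EN1 did not pass. GBX2 was read at 2.5 and 1 counts in WT, under the 3-count limit, and at 91 and 66 counts in the libraries labelled knockout (log2 fold change 5.40, SE 0.49, edgeR adjusted p = 5.51e-07). Like LHX1, GBX2 passed the count filter only through the libraries labelled knockout. Of 7 tested floor plate and dopaminergic genes, which accompany LMX1A, SLC18A2 was higher, NR4A2 and TH were lower and 4 did not pass. TH, the rate-limiting enzyme of dopamine synthesis, was read at 13.5 and 25.5 counts in WT and at 0 counts in both libraries labelled knockout (edgeR adjusted p = 0.000101). TH and NR4A2 passed the count filter only through the WT libraries, the group in which they were higher. Of 9 tested genes linked to LMX1B in limb, eye and podocyte, 5 were higher and 2 lower, so LMX1B and most called genes of that list differed in direction; FOXC2, a podocyte and eye gene, was at 1.87 and 1.62 CPM in WT against 13.4 and 19.4 CPM (log2 fold change 3.23, SE 0.22, edgeR adjusted p = 1.78e-07). For LHX1, 4 of 7 tested node and head organiser genes were higher and 1 was lower, and 4 of 10 tested intermediate mesoderm and nephric genes were higher and 4 lower. PAX2, which works with LHX1 in the nephric lineage, was at 0.727 and 1.02 CPM in WT against 6.99 and 7.15 CPM (log2 fold change 3.01, SE 0.24, edgeR adjusted p = 1.24e-07). For ISL1, 4 of 10 tested cardiac progenitor genes were higher and 3 lower. For LHX6, 8 of 10 tested first-arch mesenchyme genes were lower and 0 higher, with a median of -1.83, while LHX6 itself was under the detection limit in both groups. For LHX2, 2 of 3 tested forebrain and eye field genes were higher, EMX2 and PAX6. For LHX9, 4 of 6 tested gonad and limb bud genes were higher and 1, ETV4, was lower. For LHX4, 3 of 6 tested pituitary genes were higher (SOX2, SOX3 and GLI2) and 0 lower. Alternative settings were read only for the named genes of these lists, up to 4 a list, and not for every call counted above. Among those named genes, the calls of WT1, COL4A4, CHRD, NKX2-5, NR4A2, SLC18A2, ETV4 and SOX2 each ended in at least 1 alternative setting. Each share is to be read beside the 21.9% higher and 22.3% lower over all genes tested.

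The genes whose pattern over the 4 libraries was most like that of LMX1B and of LHX1 were found by the distance between log2(CPM + 0.5) values centred on each gene's mean, among 14034 tested protein-coding genes. Nearest to LMX1B was ANKRD33B at a distance of 0.207, with 221 and 255 CPM in WT against 4.74 and 3.87 CPM. RHBDL3, THNSL2, PTH1R and ANKRD63 followed at distances of 0.261 to 0.343. Nearest to LHX1 was TFPI2, a protease inhibitor, at a distance of 0.102, at 1.49 ± 0.0147 CPM in WT against 28.8 ± 3.08 CPM (SD, n = 2). FGF5, TYRP1, TUSC1 and NEFL followed LHX1 at 0.235 to 0.474. With 4 libraries in 2 groups, such a distance mostly reflects the difference between the groups.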

How the data were processed

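Gene-level estimated counts for 4 libraries (2 WT, 2 labelled knockout) were deposited as 1 table; the submitters' processing notes name TopHat, HOMER, DESeq2 and hg38, with no order. Of the values, 37.0% were not whole, all being multiples of 0.5, and they were rounded before testing. Only 4.32% of 23020 matched symbols start within 2000 bases of their GRCh38 position, so the deposited coordinates are printed as given, without a build. Genes were filtered with filterByExpr, scaled with TMM and tested with edgeR 4.0.16 (quasi-likelihood, robust) in R 4.3.3, with 2 residual degrees of freedom and Benjamini-Hochberg adjustment over 15643 genes; the script was tested on simulated data. CPM were taken over TMM-scaled library sizes. Intervals of count ratios are exact and, like the 3-count limit, cover counting error only. Lengths are those of GENCODE v29. Replicates of 1 genotype differed by more than counting noise (chi-square per degree of freedom 4.51 in WT and 4.35 in the other group), so none was treated as a library deposited again.

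The members and lists were chosen with earlier results of these data known. Named genes are the members, all genes of the family and cofactor lists, up to 4 genes of the other lists past the threshold with the largest fold change, the nearest tested neighbours, and the 5 genes most like LMX1B and LHX1. Some genes that this rule names are not reported here. Alternatives were other scalings, no filter, counts rounded down, DESeq2 1.42.0, limma-voom (limma 3.58.1), a replicate block and leaving out each library.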

Additional observations from a re-analysis of the deposited data

How the results depend on the processing

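With 2 libraries a group, precision is limited and each leave-one-out fit assumes that the lone library varies like the other group. Over 11 alternatives, the log2 fold change of LMX1B ranged from -6.05 to -5.77, of LHX1 from 6.14 to 7.05, of ISL1 from 1.28 to 2.05, of LHX2 from 0.45 to 0.83 and of LHX4 from -0.17 to 0.02. DESeq2 called 2267 genes higher and 2443 lower, against 3427 and 3492; the cause was not tested. Leaving out 1 library gave 2535 to 2922 genes higher, 2697 to 2919 lower and 5 to 6 cofactor and LIM-only genes past the threshold, against 6. Replicate numbers share only a number: deviations correlated at -0.033 over 11980 genes, and a replicate block gave 3050 genes higher, 3154 lower and 6 cofactor and LIM-only genes. Among 76 named genes that are no members, 13 lost and 1 gained a call in some setting. The sign turned, with no call, for 3 of them when 1 library was left out: LDB2 ranged from -0.29 to 0.17, MRM1 from -0.0044 to 0.19 and SCAPER from -0.11 to 0.10, and SCAPER was at 0.0097 with upper-quartile factors, against -0.0049.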

Other observations

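Genes of proteins with LIM domains but no homeodomain were also read. Of 33 such genes, 32 were tested, of which 6 were higher, 10 lower and 16 did not pass, beside 44.2% past the threshold over all genes, with a median log2 fold change of -0.08. CSRP1, an actin-associated LIM protein, rose from 3.99 ± 0.298 CPM in WT to 101 ± 8.60 CPM in the libraries labelled knockout (SD, n = 2, log2 fold change 4.66, SE 0.10, edgeR adjusted p = 3.24e-13). CRIP2 rose from 7.27 and 7.46 to 22.8 and 26.5 CPM (log2 fold change 1.74, SE 0.12, adjusted p = 3.45e-08). LIMA1, an actin-binding LIM protein, fell from 99.8 and 90.8 to 41.4 and 38.0 CPM (log2 fold change -1.27, SE 0.07, adjusted p = 4.10e-09).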
